A study of Mus musculus with 20 samples.

Results

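The genes described here are a list of 45 genes of resident and recruited macrophages, chosen by name from the gene table of a heart RNA-seq experiment that holds 25308 genes. The list joins genes that mark macrophages in general, genes of macrophages that live in the heart wall (Lyve1, Timd4, Folr2 and Cd163 among them), genes of monocytes that arrive from blood, the class II antigen presentation genes, Fc receptors, lectins and the growth factor Csf1 with 2 receptor chains. All 45 were found in the table and 44 passed the filter on low counts, which left 14477 genes for testing. Marco, a scavenger receptor of some tissue macrophages, was the one left out, with at most 1.2 CPM, counts scaled to the library size, in any mouse.

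The hearts came from 20 mice in 3 groups, and RNA was taken from the apex, the lower tip of the heart. The 7 Ctrl mice had the DH genotype (DH-LMP2A), a background in which B cells develop but plasma cells carry no immunoglobulin heavy chain. The 4 LS and 9 AL mice were DH-lambdaS: on the same DH background they also carried a human lambda light chain gene put into the Ig kappa locus, so that the chain is made by cells of the B lineage and reaches the heart through the blood. LS mice had not been induced and were labelled AL-. AL mice were labelled AL+, because amyloid, the fibrillar deposit that the light chain forms, had been started by an injection of the variable domain of the same chain. So the DH background was common to all 20 mice, the transgene separated LS from Ctrl, and induction with its deposits separated AL from LS. The labels used here give neither the age nor the sex of single mice, nor which form of the variable domain a mouse received. As a model it holds free light chains, and plasma cells without heavy chains in every group.

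The libraries were sequenced in 2 runs, and this divided the groups unevenly. AL1 to AL7, all 4 LS mice and Ctrl1 to Ctrl4 were in the first run. AL8, AL9 and Ctrl5 to Ctrl7 were in the second run, which was shallower, so that total estimated counts ran from 7867642 to 62668146 over the 20 libraries. The second-run AL mice stood at opposite ends for these genes: AL8 was the lowest of the 9 AL mice for 28 of the 44 tested genes, and AL9 the highest for 22. All comparisons had the run as a term. Several group medians are given without AL9 too, but none without AL8. Those medians show what leaving out AL9 does, and fits without AL8 are given for some genes only. Nothing in the labels beyond the mouse names says how far the samples of a group were independent, so p-values measure the spread between these hearts.

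Macrophages of the heart come from at least a pair of sources. Resident macrophages settle early in life, renew themselves in place and clear dying cells and debris, and they are known for the hyaluronan receptor Lyve1, the phosphatidylserine receptor Timd4 and the folate receptor Folr2. Monocytes enter from blood through the receptor Ccr2, carry Ly6c2 and Plac8, and can become macrophages rich in class II molecules, which show peptides to CD4 T cells. Csf1 is the growth factor on which most macrophages depend, acting through Csf1r. In whole heart RNA, a lower level of such genes can come from fewer cells or from less RNA per cell, and the data cannot tell these apart.

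The class II genes are switched on together by the coactivator Ciita, which has no DNA-binding domain of its own and acts through factors that sit on short boxes just before the gene start, the X and Y boxes. Promoters of 31 of the 45 genes were in the RefSeq table used (build GRCm38.p6). A stretch of the H2-Aa and H2-Eb1 promoters is shown, since the H2-Aa transcript was the class II member that passed the test and H2-Eb1 lay close to it. Both are on chromosome 17, H2-Aa at chr17:34287847-34287936 on the minus strand and H2-Eb1 at chr17:34305743-34305832 on the plus strand, before the annotated gene starts and outside the transcripts. Capitals mark GATTGG, the core of the Y box, and AACTGATG, a core of the X box as found in H2-Eb1.
H2-Aa: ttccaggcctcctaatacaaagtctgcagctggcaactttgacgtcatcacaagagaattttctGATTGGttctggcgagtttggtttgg
H2-Eb1: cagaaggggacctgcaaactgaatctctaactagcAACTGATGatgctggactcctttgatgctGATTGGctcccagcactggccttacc
The motifs were searched on both strands over the 250 bases before the start and do not overlap in the stretches shown. GATTGG began 49 bases before the start in H2-Aa and 60 bases before it in H2-Eb1, and AACTGATG began 89 bases before it in H2-Eb1. Of all 32851 promoter windows in the table, 14.6% held GATTGG, 0.676% held AACTGATG and 0.0883% held both. Of the 40 windows that belong to the macrophage list, 2 held both, those of H2-Eb1 and H2-DMb1. The match in H2-Eb1 was given in advance, since AACTGATG is the form found there, so this count is no measure of enrichment. Only these exact letters were searched, and other forms of the X box, in H2-Aa or elsewhere, were not counted. A match describes letters in the window only.

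Of the 44 genes tested, 11 passed the test between AL and Ctrl (edgeR quasi-likelihood test, Benjamini-Hochberg FDR under 0.05 and an absolute log2 fold change, log2FC, of at least 0.58). Higher in AL were 8 genes, namely Plac8, Chil3, Tyrobp, Lyz2, Clec4n, Csf1, Csf2rb and Csf2rb2, where 4.1% of all tested genes were called higher. Lower in AL were 3 genes, Timd4, Ly6c2 and H2-Aa, where 3.71% of all tested genes were called lower. Against LS, 10 of the 44 were higher in AL, with a background of 5.86%, and 0 were lower, with a background of 3.03%. One gene, Timd4, was lower at an unadjusted p under 0.05 by edgeR, and DESeq2 called it. Those 10 were Plac8, Chil3, Fcgr4, Tyrobp, Lyz1, Laptm5, Ms4a7, Clec4n, Csf1 and Csf2rb, and 6 of them were also among the genes higher than in Ctrl. The median log2FC of the 44 genes was 0.15 against Ctrl and 0.34 against LS, where the median over all tested genes was 0.01 in both. Without AL9 the medians of the 44 were 0.036 and 0.31, with 24 estimates above 0 against Ctrl and 32 against LS, so the shift against Ctrl rested largely on that mouse. The 2 comparisons share the AL mice.

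Between LS and Ctrl no macrophage gene passed the edgeR test or DESeq2, and 2 of the 44 had an unadjusted p under 0.05 by edgeR. The background was 0.00691% of all tested genes called higher and 0.0138% called lower. Those 2 genes were Ly6c2 (log2FC −2.63 ± 0.74 SE, FDR = 0.68) and Lyz1 (−1.56 ± 0.47, FDR = 0.68), both with a lower fitted level in LS. They were named because they are the 2 with p under 0.05. Over the 44 genes, 10 estimates between LS and Ctrl were above 0, with a median of −0.16, where the median over all tested genes was 0.0003.

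**Figure D1:**
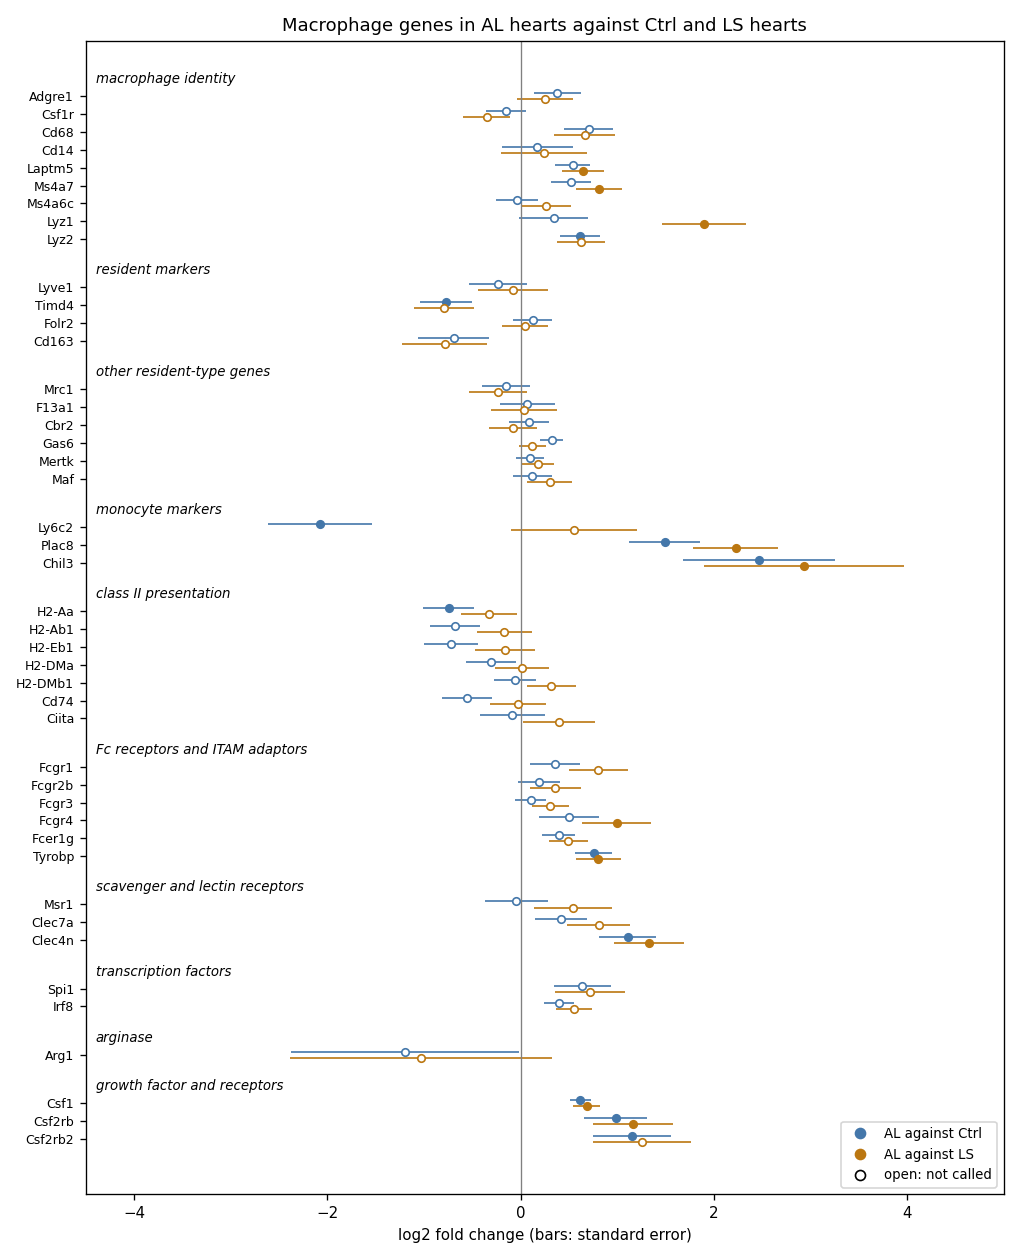
Points give the log2FC of the 44 tested macrophage genes in AL mice against Ctrl (blue) and against LS (brown), with bars for 1 standard error, and filled points passed the test. Plac8, Chil3, Tyrobp, Clec4n, Csf1 and Csf2rb are filled in both comparisons, most class II genes lie left of 0 against Ctrl, and Ly6c2 lies at −2.08 against Ctrl.

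Of the 4 resident markers, 1 passed the test. Timd4, the receptor by which resident macrophages bind dying cells, was lower in AL than in Ctrl, Cd163 had a like estimate with a wider error, and the estimates of Lyve1 and Folr2 were smaller than their standard errors. Their median log2FC was −0.47 against Ctrl and −0.43 against LS. In the first run alone all 4 estimates against Ctrl were below 0, with a median of −0.75, while in the second run 3 of 4 were above 0, with a median of 0.32. Without AL9 all 4 were below 0 in both comparisons, with medians of −0.81 and −0.55. In the edgeR test of the difference between runs the 4 had FDRs from 0.434 (Lyve1) to 0.564 (Cd163), not past the threshold. Per kilobase of exon their levels in Ctrl ranked Lyve1 (11 FPKM), Folr2 (4.93), Cd163 (4.84) and Timd4 (0.897), and Folr2 and Cd163 lay close to each other.

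Timd4 (chr11:46810800-46844332, plus strand, GRCm38) was measured at 0.769 CPM in the lowest Ctrl mouse, 1.85 in the median and 3.56 in the highest. The LS mice had 2.27, 2.38, 2.18 and 2.72 CPM, and the AL mice 0.54 in the lowest, 1.38 in the median and 2.07 in the highest. All 9 AL mice lay below all 4 LS mice, while 2 of the 9 lay below every Ctrl mouse, so that the AL and Ctrl ranges overlapped. The log2FC was −0.77 ± 0.27 SE against Ctrl (edgeR FDR = 0.0408) and −0.80 ± 0.31 against LS (FDR = 0.0673, not called), which passed without AL1 (FDR = 0.0451) or AL9 (FDR = 0.031). The call against Ctrl stood close to the threshold. It was lost in 10 of the 20 fits that each left out 1 mouse (AL2, AL3, AL4, AL5, AL6, AL8, Ctrl1, Ctrl2, Ctrl3 or Ctrl5), in which the estimate went as far as −0.60 without Ctrl2 (FDR = 0.128). In the first run alone it was −0.97 (FDR = 0.0248) against Ctrl and −0.86 (FDR = 0.0342) against LS, both called. In the second run alone, where Timd4 had 5 to 17 counts a library, it was −0.12 (FDR = 0.946).

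Cd163, the haemoglobin scavenger receptor, was at 12.4 CPM in the lowest Ctrl mouse, 23.2 in the median and 62.3 in the highest. LS mice had 24.9, 29.9, 31.6 and 34.6 CPM, and the AL mice 5.45 in the lowest, 15.3 in the median and 32 in the highest. The log2FC was −0.70 ± 0.37 against Ctrl (FDR = 0.173) and −0.79 ± 0.44 against LS (FDR = 0.2), neither called. AL3, AL4 and AL8 were below every Ctrl mouse, and AL9 was the highest AL mouse. Without AL9 the estimate against Ctrl was −1.10 (FDR = 0.0324), which passed the test. This was the only call in the 20 fits that each left out 1 mouse, and the estimates went as far as −0.29, with FDR up to 0.586.

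Lyve1 (chr7:110850607-110863239, minus strand) had 9.76 CPM in the lowest Ctrl mouse, 33.7 in the median and 71.9 in the highest. In LS the values were 37, 30.2, 30.9 and 44.1 CPM, and the AL mice 5.22, 28.7 and 44.3 as lowest, median and highest. The log2FC was −0.24 ± 0.30 against Ctrl (FDR = 0.597) and −0.08 ± 0.36 against LS (FDR = 0.895). Against Ctrl it was −0.54 in the first run alone (FDR = 0.103) and −0.66 without AL9 (FDR = 0.0582), neither called. The ranges of the 3 groups overlapped, with AL8 the lowest of all 20 mice and Ctrl2 the highest. Lyve1 is also made by lymphatic endothelium, whose marker list summed to 103 to 134 CPM in Ctrl, 109.6 to 146 in LS and 82.4 to 192 in AL with 0 of its genes called, and its part in the Lyve1 values was not tested.

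Folr2 had 2.89 CPM in the lowest Ctrl mouse, 7.2 in the median and 11.8 in the highest, and the LS mice had 10.4, 8.75, 8.58 and 12.8 CPM. The AL mice had 3.56, 8.87 and 14.4 CPM as lowest, median and highest. The log2FC was 0.12 ± 0.20 against Ctrl (FDR = 0.694) and 0.05 ± 0.24 against LS (FDR = 0.909), and the groups overlapped.

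Ctrl mice of the 2 runs differed in these resident genes, a difference that was not tested. Lyve1 was 44.9 ± 18.2 CPM (SD, n = 4) in first-run Ctrl and 15.1 ± 8.15 (n = 3) in second-run Ctrl, and Folr2 was 10.4 ± 2.15 and 3.95 ± 1.46. Timd4 was 2.55 ± 0.74 in first-run and 1.15 ± 0.471 in second-run Ctrl.

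The other resident-type genes were Mrc1 (the mannose receptor), F13a1 (the coagulation factor XIII A chain), Cbr2 (a carbonyl reductase), Gas6 and Mertk (a bridging ligand for dying cells and its receptor) and Maf (a transcription factor of resident macrophages). None of the 6 was called in either comparison by edgeR or DESeq2, with 1 at an unadjusted p under 0.05 against Ctrl (Gas6) and 0 against LS, with log2FC between −0.15 (Mrc1) and 0.32 (Gas6) against Ctrl and between −0.23 and 0.30 against LS. Their median log2FC was 0.09 against Ctrl and 0.08 against LS, and −0.12 and −0.032 without AL9. Gas6 stood at 262 CPM in AL9, where the other 19 mice held 84.2 to 133. In the first run alone Mrc1 was lower in AL than in Ctrl by the edgeR estimate of −0.51 (FDR = 0.0205), short of the fold needed for a call, and without AL9 it was −0.58 (FDR = 0.00926), a call.

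**Figure D2:**
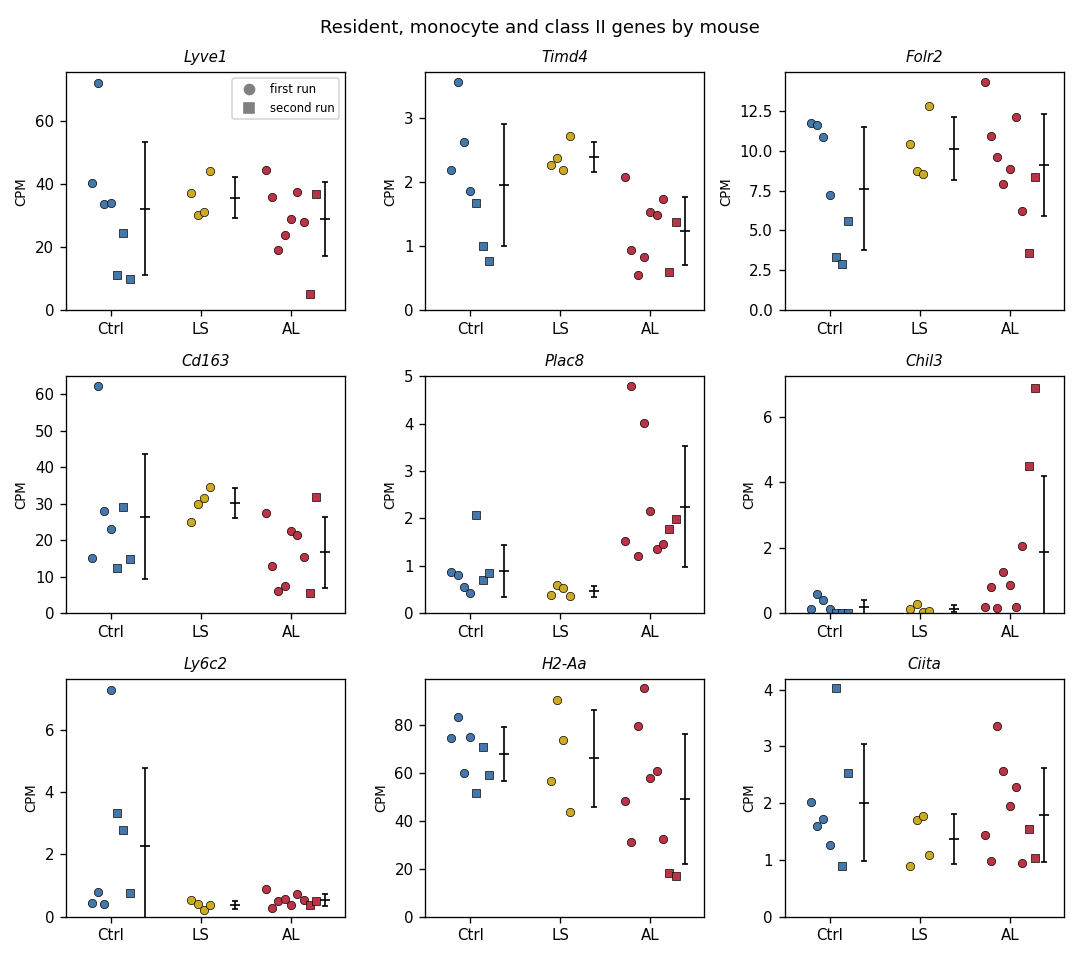
Each point is the CPM of 1 mouse for 4 resident markers, 3 monocyte markers and 2 class II genes, with circles for the first run, squares for the second, and bars beside each group for the mean ± SD (7 Ctrl, 4 LS, 9 AL). All AL points lie below all LS points for Timd4 and above all LS points for Plac8, the 3 high Ly6c2 points are Ctrl mice, and the 2 squares of AL are the lowest AL points for H2-Aa.

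Of the genes that mark monocytes, 2 rose in AL and 1 fell. Plac8, a small cysteine-rich protein abundant in monocytes and also made by plasmacytoid dendritic cells, rose against both controls. Chil3, a chitinase-like protein of monocytes and of alternatively activated macrophages, rose too, from a level near 0. Ly6c2, a surface antigen of classical monocytes, was lower in AL than in Ctrl, with 3 Ctrl mice above all others.

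Plac8 (chr5:100553725-100572245, minus strand) had 0.427 CPM in the lowest Ctrl mouse, 0.818 in the median and 2.07 in the highest. In the 4 LS mice it was at 0.378, 0.589, 0.53 and 0.366 CPM, and the AL mice 1.2 in the lowest, 1.78 in the median and 4.79 in the highest. All 9 AL mice were above all 4 LS mice, and 3 of the 9 (AL2, AL4 and AL5) were above every Ctrl mouse. The log2FC was 2.23 ± 0.44 against LS (edgeR FDR = 0.00194) and 1.49 ± 0.37 against Ctrl (FDR = 0.00679). Both calls were kept in all 20 fits that left out 1 mouse. Plac8 is also made by B cells, and the B cell list summed to 1.39 to 3.05 CPM in Ctrl, 1.32 to 1.68 in LS and 1.09 to 5.29 in AL, with AL2 and AL5 the highest. AL4, with 4.01 CPM of Plac8, had a B cell sum of 1.48 CPM, and the part of B cells was not tested. Hepatocyte genes were lower in AL, as given with Arg1. With the mean log2 level of 15 hepatocyte genes as a covariate, the Plac8 estimate against Ctrl was 1.00 (FDR = 0.138), and in the second run alone 0.70 (FDR = 0.589), neither called.

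Chil3 (chr3:106147554-106167564, minus strand) had 0 CPM in the lowest Ctrl mouse, 0.122 in the median and 0.59 in the highest. LS mice stood at 0.142, 0.295, 0.0407 and 0.077 CPM, and the AL mice 0.169, 0.858 and 6.88 as lowest, median and highest. AL1, AL3 and AL6, at 0.205, 0.169 and 0.201 CPM, lay inside the Ctrl and LS ranges, and the other 6 AL mice were above every mouse of both. The log2FC was 2.46 ± 0.79 against Ctrl (FDR = 0.0274) and 2.94 ± 1.04 against LS (FDR = 0.0465). In the first run alone it was 1.32 ± 0.73 against Ctrl (FDR = 0.197, not called) and 2.51 ± 0.81 against LS (FDR = 0.0284, called). In the second run all 3 Ctrl libraries had 0 counts and AL8 and AL9 had 38 and 80, so that Chil3 was at least 19.1-fold higher there on the mean, taking 3 counts per library as the level that a count of 0 allows. The call against Ctrl was lost without AL7, Ctrl4, Ctrl5 or Ctrl6 (FDR up to 0.057), and that against LS in 11 of 20 fits that left out 1 mouse (AL2, AL4, AL5, AL7, any LS mouse, Ctrl1, Ctrl3 or Ctrl4), with FDR up to 0.12. With the hepatocyte genes as a covariate both Chil3 calls were lost, at 2.88 against Ctrl (FDR = 0.0836) and 3.18 against LS (FDR = 0.0583).

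Ly6c2 (chr15:75108158-75111970, minus strand) had 0.399 CPM in the lowest Ctrl mouse, 0.78 in the median and 7.28 in the highest. Values in LS were 0.52, 0.4, 0.204 and 0.366 CPM, and the AL mice 0.263, 0.516 and 0.901. Ctrl4, Ctrl5 and Ctrl6, at 7.28, 3.35 and 2.79 CPM, were above all other mice, while the other 4 Ctrl mice had 0.399 to 0.78. The log2FC was −2.08 ± 0.54 against Ctrl (edgeR FDR = 0.00864) and 0.55 ± 0.65 against LS (FDR = 0.575). Without Ctrl4 it was −0.68 (FDR = 0.303), so the call against Ctrl rests on that mouse, and with the hepatocyte covariate it was −2.14 (FDR = 0.068), not called.

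Ly6c2 also has a neighbour that is hard to separate from it. Ly6c1, its near-identical copy on chromosome 15, averaged 135 CPM over the 20 mice against 1.1 for Ly6c2, and is abundant in endothelium. The coding sequences were 92.8% identical over 389 aligned bases, and 39.4% of the 31-base words of the Ly6c2 transcript also occur in that of Ly6c1. The first 90 coding bases are shown, from the GENCODE M21 transcripts, with capitals at the 6 positions that differ, since reads over the stretches between capitals could come from either gene.
Ly6c2: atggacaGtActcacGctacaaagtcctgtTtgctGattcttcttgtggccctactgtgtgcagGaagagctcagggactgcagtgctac
Ly6c1: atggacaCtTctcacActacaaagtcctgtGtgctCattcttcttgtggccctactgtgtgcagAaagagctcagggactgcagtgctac
Summed over both genes, the log2FC was 0.29 ± 0.15 against Ctrl (FDR = 0.159) and 0.63 ± 0.18 against LS (FDR = 0.0151), so the sum was higher in AL than in LS. The value of Ly6c2 alone is therefore uncertain.

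Of 13 other monocyte genes tested from a list of 14, 1 was higher in AL than in Ctrl and 2 were higher than in LS by edgeR, with medians of 0.44 in both comparisons. Over all tested genes 4.1% and 5.86% were called higher, so that 1 of 13 was near the background. Ccr2, the receptor that brings monocytes into tissue, was in both counts. It was 3.36 CPM on the mean in Ctrl, 1.59 in LS and 5.77 in AL, with a range of 3.94 to 7.51 in AL that lay above the LS range of 1.04 to 2.3. Its log2FC was 0.75 ± 0.21 against Ctrl (FDR = 0.0134) and 1.89 ± 0.26 against LS (FDR = 0.000399). Between LS and Ctrl the log2FC of Ccr2 was −1.13 ± 0.27, lower in LS, which DESeq2 called and edgeR did not (FDR = 0.508), so part of the larger value against LS lay between the control groups. The other gene called against LS was Gda, guanine deaminase, at 0.69 (FDR = 0.0421).

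The class II genes were lower in AL than in Ctrl by 7 of 7 estimates, but 1 of 7, H2-Aa, passed the test, and their median was −0.56. Without AL9 the median was −0.39, with 2 of 7 estimates above 0. Against LS 0 of 7 passed by edgeR or by DESeq2, 0 had an unadjusted p under 0.05, and the median was −0.03. Between LS and Ctrl 0 of 7 estimates were above 0 either, with a median of −0.48 and a range of −0.56 to −0.32, and 0 were called. These fitted values rest on a run term, and no LS mouse was in the second run. In the first run alone the estimates of LS against Ctrl were smaller, from −0.30 (H2-Eb1) to −0.06 (H2-DMa). The median of AL against Ctrl in that run was −0.16. How much of the difference from Ctrl is shared with LS mice, which had not been induced, is therefore uncertain. The spread within AL was wide, from AL4, the highest of the 20 mice for H2-Aa, H2-Ab1, H2-Eb1 and Cd74, down to AL2, AL7, AL8 and AL9.

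H2-Aa, the alpha chain of the I-A class II molecule (chr17:34282744-34287823, minus strand), had 51.5 CPM in the lowest Ctrl mouse, 70.8 in the median and 83.3 in the highest. LS mice gave 56.6, 90.3, 73.6 and 43.5 CPM, and the AL mice 17, 48.4 and 95.3. Of the AL mice, 5 were below every Ctrl mouse and 1, AL4, was above every one. The log2FC was −0.75 ± 0.27 against Ctrl (edgeR FDR = 0.0461) and −0.33 ± 0.29 against LS (FDR = 0.443). The call was lost in 15 of 20 fits that left out 1 mouse, the exceptions being AL3, AL4, LS2, LS4 and Ctrl3, and without AL9 the estimate was −0.57 (FDR = 0.132). In the first run alone it was −0.34 (FDR = 0.384).

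H2-Ab1 and H2-Eb1, the beta chains that pair with I-A and I-E alpha chains, followed the same mice. H2-Ab1 had 28.1, 34.3 and 40.1 CPM as lowest, median and highest in Ctrl, 29, 35.2, 30.2 and 20.2 in LS, and 8.06, 24.1 and 49 in AL. H2-Eb1 had 38.8, 51.7 and 55.4 CPM in Ctrl, 38.3, 50.3, 46.1 and 27.1 in LS, and 14.6, 26.7 and 69.6 in AL. Below every Ctrl mouse were 6 AL mice for H2-Ab1 and 5 for H2-Eb1, and AL4 was above every Ctrl mouse for both. Against Ctrl the log2FC was −0.68 ± 0.26 for H2-Ab1 (FDR = 0.0572) and −0.72 ± 0.28 for H2-Eb1 (FDR = 0.0635), neither called. Without AL3, AL4 or Ctrl3 both passed the test, with −0.84 (FDR = 0.0109) and −0.88 (FDR = 0.0163) without AL4.

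Cd74, the invariant chain that guides class II molecules to the peptide compartment, was the most abundant of the group. It had 78.6, 110.8 and 134 CPM as lowest, median and highest in Ctrl, 68.6, 109, 94.3 and 57.2 in LS, and 41.7, 78.9 and 148 in AL. The log2FC was −0.56 ± 0.26 against Ctrl (FDR = 0.123) and −0.03 ± 0.29 against LS (FDR = 0.959). It passed the test without AL4 (−0.70, FDR = 0.0383). With the hepatocyte genes as a covariate 3 class II genes were called lower against Ctrl, H2-Aa (−1.16, FDR = 0.0222), H2-Ab1 (−0.99, FDR = 0.0466) and Cd74 (−0.94, FDR = 0.048), while H2-Eb1 was at −1.04 (FDR = 0.0528). Ciita, the coactivator, had 0.896, 1.72 and 4.04 CPM in Ctrl, 0.898, 1.7, 1.77 and 1.08 in LS, and 0.952, 1.54 and 3.36 in AL. Its log2FC was −0.09 ± 0.34 against Ctrl (FDR = 0.876) and 0.40 ± 0.38 against LS (FDR = 0.472), and the groups overlapped.

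The lowest value of the 20 mice lay in AL8 or AL9 for H2-Aa, H2-Ab1, H2-Eb1, H2-DMa and Cd74, but in AL7, a first-run mouse, for H2-DMb1 and in Ctrl6 for Ciita. H2-Aa was 17.7 ± 0.942 CPM (SD, n = 2) in AL8 and AL9 and 60.4 ± 9.75 (n = 3) in Ctrl5 to Ctrl7, and the estimate within that run was −1.72 ± 0.19 (edgeR FDR = 0.0435). H2-Eb1 (−1.69, FDR = 0.0334) and Cd74 (−1.44, FDR = 0.0435) were called there as well, and these 3 were the macrophage genes called in the second run, where 0.072% of 12496 genes were called higher and 0.056% lower. In the first run the class II median was −0.16, with 3 of 7 estimates above 0, against −1.44 with 0 of 7 above 0 in the second. The difference between runs was tested for each gene, and 0 of the 7 passed by edgeR (H2-DMa, a peptide loading chaperone, was nearest with FDR = 0.0874). Class II genes are also made by dendritic cells and B cells. The dendritic cell list summed to 20.6 to 25.3 CPM in Ctrl, 17.3 to 22 in LS and 19.6 to 30.2 in AL, with 22.6 and 25.9 in AL8 and AL9. Of its 9 genes, 7 had estimates above 0 against Ctrl and 9 against LS. Called higher were 1 and 2, beside 4.1% and 5.86% of all tested genes. Itgax was called in both (1.47, FDR = 0.00554, and 1.81, FDR = 0.00708), with 2.96 and 6.11 CPM in AL8 and AL9. Xcr1 and Clec9a were at or below 0.119 CPM in both mice. The part of dendritic cells and B cells in the class II values was not tested.

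Of 13 other class II pathway genes tested from a list of 15, none was called in either comparison by edgeR, with 4 at an unadjusted p under 0.05 against Ctrl and 2 against LS, all higher in AL. Over all tested genes 17.8% and 17.2% were higher at such a p, and 38.8% and 36.8% passed it in either direction. DESeq2 called 0 against Ctrl and 1 against LS, H2-DMb2. Rfxap, a subunit of the factor that binds the X box, had a log2FC of 0.26 against Ctrl (FDR = 0.0396), too small for a call, and the median of the 13 was 0.26 against Ctrl and 0.22 against LS.

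Among the genes that mark macrophages in general, the estimates were above 0 for 7 of 9 against Ctrl and 8 of 9 against LS, with medians of 0.38 and 0.62, and 0.28 and 0.53 without AL9. Adgre1, the F4/80 antigen, had 5.71, 8.27 and 21.2 CPM as lowest, median and highest in Ctrl, 13.7, 17, 14.9 and 14.7 in LS, and 5.81, 16.4 and 25.5 in AL. Its log2FC was 0.38 ± 0.24 against Ctrl (FDR = 0.26) and 0.25 ± 0.29 against LS (FDR = 0.561). Csf1r, the Csf1 receptor, had 31, 45.2 and 54.3 CPM in Ctrl, 43.2, 47.8, 48.3 and 52.1 in LS, and 20.3, 35.5 and 77.8 in AL. Its log2FC was −0.15 ± 0.20 against Ctrl (FDR = 0.621) and −0.35 ± 0.24 against LS (FDR = 0.309). Without AL9 it was −0.47 (FDR = 0.0211) and −0.46 (FDR = 0.0289), and in the first run alone −0.38 (FDR = 0.0537) and −0.43 (FDR = 0.0265), all short of the fold needed for a call. In the second run alone it was 0.42 against Ctrl (FDR = 0.721). For Csf1r, 7 AL mice lay below every LS mouse, 1 fell inside the LS range and AL9 was above every mouse of the study.

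Cd68, a lysosomal glycoprotein of phagocytes, was one of the genes near the threshold. It had 2.69, 5.53 and 7.47 CPM in Ctrl, 5.15, 5.97, 5.36 and 6.01 in LS, and 3.91, 8.36 and 21.2 in AL. Its log2FC was 0.70 ± 0.26 against Ctrl (edgeR FDR = 0.0503) and 0.66 ± 0.31 against LS (FDR = 0.131), and 8 of 9 AL mice lay above the median of each control group. It passed the test against Ctrl in 4 of 20 fits that left out 1 mouse, without AL2, AL7, AL8 (0.82, FDR = 0.0119) or Ctrl1. Without AL9, the highest of the 20 mice, the estimate against Ctrl fell to 0.32 (FDR = 0.248).

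Laptm5, a lysosomal membrane protein of blood cells, rose against LS with a log2FC of 0.65 ± 0.22 (edgeR FDR = 0.0404). It had 16, 14.5, 15.6 and 15.8 CPM in the LS mice and 11.4, 22.2 and 36.7 as lowest, median and highest in AL, with 8 of 9 AL mice above all LS mice and AL8 below them. Against Ctrl (10.1, 15.1 and 22.7 CPM) it had a log2FC of 0.54 (FDR = 0.0351), short of the fold threshold, which fell to 0.28 without AL9 (FDR = 0.106). With the hepatocyte covariate it was 0.74 (FDR = 0.0418), a call. The call against LS was lost without AL1, AL4, AL6, AL9 or any one of the LS mice, with FDR up to 0.104.

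Ms4a7, a tetraspan membrane protein of mature macrophages, rose against LS by a log2FC of 0.81 ± 0.24 (edgeR FDR = 0.0202). The LS mice had 1.3, 2.06, 1.47 and 1.37 CPM, the AL mice 1.07, 2.8 and 3.31, and Ctrl 1.28, 1.61 and 2.49 as lowest, median and highest. Above every LS mouse were 7 AL mice, and AL8 was below them. The call was lost without LS1, LS3 or LS4 (FDR up to 0.0681) and with the hepatocyte covariate (0.67, FDR = 0.0801). Cd14, a coreceptor for endotoxin, and Ms4a6c were not called in either comparison, with log2FC between −0.04 and 0.26.

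Lysozyme is encoded in the mouse by neighbouring genes on chromosome 10. Lyz2 (chr10:117277331-117282321, minus strand) is the macrophage form and was the highest of all 45 genes per kilobase of exon, at 108 FPKM in Ctrl and 172 in AL, while Lyz1 (chr10:117287797-117292868, minus strand) had 1.36 in Ctrl. Lyz2 rose in AL with a log2FC of 0.61 ± 0.21 against Ctrl (edgeR FDR = 0.034), from 87.6, 133 and 195 CPM as lowest, median and highest in Ctrl to 89.8, 202 and 359 in AL. Values of 139, 176, 155 and 166 CPM were seen in LS, and against them the log2FC was 0.62 ± 0.25 (FDR = 0.079, not called). Above every Ctrl mouse were 5 AL mice and above every LS mouse 8, and AL8 was below all LS mice. The call against Ctrl was lost without AL1, AL7, AL9 (0.33, FDR = 0.157), Ctrl4, Ctrl5 or Ctrl7, and with the hepatocyte covariate (0.73, FDR = 0.0694).

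Lyz1 rose against LS by 1.90 ± 0.43 (edgeR FDR = 0.00474), from 0.685, 0.884, 0.672 and 0.52 CPM in the LS mice to 0.356, 2.45 and 3.41 in AL, and this call was kept in all 20 fits that left out 1 mouse. Against Ctrl, at 0.573, 1.54 and 2.93 CPM, it had a log2FC of 0.34 ± 0.36 (FDR = 0.514). All AL mice except AL8 were above all LS mice. The coding sequences of Lyz1 and Lyz2 were 95.1% identical over 447 bases, and 34.2% of the 31-base words of Lyz1 occur in Lyz2, where Lyz2 averaged 184 CPM and Lyz1 1.82. The first 90 coding bases are shown with capitals at the 7 positions that differ.
Lyz1: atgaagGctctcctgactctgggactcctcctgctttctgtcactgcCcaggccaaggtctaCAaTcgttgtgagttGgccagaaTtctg
Lyz2: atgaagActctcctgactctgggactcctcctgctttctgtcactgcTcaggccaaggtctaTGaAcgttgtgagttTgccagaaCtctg
Summed over both, lysozyme rose against Ctrl by 0.61 (FDR = 0.0346), and against LS it was 0.63 (FDR = 0.0747, not called). The share of Lyz1 alone is uncertain for that reason.

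Fc receptors bind the constant part of antibodies, and the activating ones signal through ITAM adaptors, small membrane proteins whose tyrosines recruit the kinase Syk. All 6 genes of this group had estimates above 0 in both comparisons, with medians of 0.37 against Ctrl and 0.65 against LS. Against Ctrl 4 of 6 were above 0 in the first run alone and 4 of 6 without AL9, where the median was 0.19 and Fcgr2b (−0.11) and Fcgr3 (−0.09) were below 0, while against LS all 6 stayed above 0 in both fits. Tyrobp, the adaptor DAP12 (chr7:30413760-30417585, plus strand), rose in both. It had 2.56, 7.25 and 9.38 CPM as lowest, median and highest in Ctrl, 6.38, 6.86, 8.15 and 6.51 in LS, and 6.64, 11.6 and 14.5 in AL. The log2FC was 0.75 ± 0.19 against Ctrl (edgeR FDR = 0.00803) and 0.80 ± 0.23 against LS (FDR = 0.0193). Of the AL mice, 6 were above every Ctrl mouse and 8 above every LS mouse. Without AL9 the estimate against Ctrl was 0.52 (FDR = 0.00871), below the fold threshold, and the call against LS was lost without LS1, LS2 or LS4 (FDR up to 0.0572).

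Fcgr4, an activating Fc receptor of monocytes and macrophages, rose against LS by 0.99 ± 0.35 (edgeR FDR = 0.0483). The LS mice had 0.52, 1.01, 0.978 and 0.539 CPM, the AL mice 0.474, 1.35 and 2.77 and the Ctrl mice 0.299, 0.692 and 1.67. Above every LS mouse were 6 AL mice, and the ranges overlapped. The call was lost in 11 of 20 fits that left out 1 mouse (AL1, AL2, AL4, AL6, AL7, any LS mouse, Ctrl1 or Ctrl7), with FDR up to 0.146, and with the hepatocyte covariate (0.80, FDR = 0.178). Fcgr1, Fcgr2b, Fcgr3 and Fcer1g, the other Fc receptors and the gamma chain of the activating ones, were not called. Their log2FC ran from 0.11 to 0.40 against Ctrl and from 0.30 to 0.80 against LS. Fcgr2b and Fcgr3 have 86.5% identical coding bases, and their sum had a log2FC of 0.15 against Ctrl (FDR = 0.582).

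Of 15 other Fc receptor and ITAM signalling genes, 4 were higher in AL than in Ctrl and 5 higher than in LS by edgeR, with 0 lower, beside 4.1% and 5.86% of all tested genes called higher. The medians were 0.45 and 0.59. Fgr, a kinase of the Src family, was among them, at 1.92 ± 0.41 against Ctrl (FDR = 0.00247) and 2.33 ± 0.52 against LS (FDR = 0.00402). The inhibitory receptors Pirb (1.03 and 1.19) and Lilr4b (0.65 and 1.20) were called in both, and Lilrb4a (0.97) and the phosphatase Ptpn6 (0.82) against LS. Syk itself was 0.38 against Ctrl (FDR = 0.00517), below the fold needed. Pirb and the Lilrb4a pair belong to families of like sequence, so the split of reads among their members is uncertain.

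Of the scavenger and lectin receptors, Clec4n, the receptor dectin-2 for fungal and other glycans (chr6:123229843-123247021, plus strand), rose in both comparisons. It had 0.984, 2.26 and 2.72 CPM as lowest, median and highest in Ctrl, 1.75, 1.33, 1.77 and 2.29 in LS, and 1.66, 3.54 and 8.78 in AL. The log2FC was 1.11 ± 0.29 against Ctrl (edgeR FDR = 0.0099) and 1.33 ± 0.36 against LS (FDR = 0.0133). Of the AL mice, 7 were above every Ctrl mouse and 8 above every LS mouse, and AL8, the lowest, was inside both ranges. The call against Ctrl was kept in all 20 fits that left out 1 mouse, although the estimate was 0.69 without AL9, and that against LS was lost without LS2 (1.20, FDR = 0.0507). Clec7a, the beta-glucan receptor dectin-1, and Msr1, a scavenger receptor for modified lipoproteins, were not called, with log2FC of 0.42 and −0.05 against Ctrl and 0.81 and 0.54 against LS. Marco was at 54 counts in AL7 and at most 16 in any other mouse.

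The transcription factors Spi1 (PU.1) and Irf8, which direct myeloid development, had estimates of 0.64 ± 0.29 and 0.39 ± 0.15 against Ctrl and 0.71 ± 0.36 and 0.56 ± 0.19 against LS. Neither was called, although Irf8 had an FDR of 0.0372 against LS with a fold just too small. Spi1 was 9.47 CPM in AL9, where the other 19 mice had 1.07 to 3.15. Without AL9 the estimates against Ctrl fell to 0.11 for Spi1 (FDR = 0.681) and 0.24 for Irf8 (FDR = 0.196). With the hepatocyte covariate Irf8 was called in both, at 0.61 (FDR = 0.0406) and 0.73 (FDR = 0.0214).

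Arg1, arginase, is made by some activated macrophages and, in far larger amounts, by hepatocytes. It had 0, 0.38 and 5.04 CPM as lowest, median and highest in Ctrl, 2.29, 0.0841, 2.99 and 0.212 in LS, and 0.0628, 0.153 and 5.77 in AL, and its log2FC was −1.19 ± 1.18 against Ctrl (FDR = 0.482). The mice above 1.5 CPM were Ctrl1, Ctrl3, Ctrl4, LS1, LS3 and AL9. The first 5 of these were also the 5 with the highest sums over 15 hepatocyte genes, 256 to 458 CPM, where AL9 had 105 and the other mice 28.9 to 119. In AL9 the gene Trf alone held 97.9 CPM of that sum, and Alb was at 0.0861 CPM. Trf was not called in either comparison and ran from 24.1 CPM in AL8 to 104 in Ctrl3. Hepatocyte genes as a list were lower in AL, with 13 of 15 called against Ctrl and 9 of 15 against LS. With the hepatocyte genes as a covariate, the Arg1 estimate turned to 3.94 against Ctrl (FDR = 0.0222) and 3.39 against LS (FDR = 0.0427). Without AL9 and without that covariate it was −2.59 (FDR = 0.038), so neither direction is given here as a change. Timd4 and Cd163 are also genes of liver macrophages. Of 6 tested genes of the Kupffer cell list, 1 was called higher against Ctrl, Clec1b (1.06), and 1 lower, Timd4. Over all tested genes 4.1% were called higher and 3.71% lower. Against LS, Clec1b alone was called higher (1.56), beside 5.86%. Clec4f had its highest value in Ctrl3, at 0.748 CPM, and was not called (−1.10 against Ctrl, FDR = 0.239). With the hepatocyte covariate the Timd4 estimate was −0.64 (FDR = 0.244) and no longer passed. The part of liver macrophages in the Timd4 values was not tested.

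Of the growth factor and its related receptors, all 3 rose against Ctrl and 2 of 3 against LS. Csf1 (chr3:107741048-107760469, minus strand) had 25.9 CPM in the lowest Ctrl mouse, 33.6 in the median and 47 in the highest. LS mice showed 19.7, 23, 35.5 and 28.8 CPM, and the AL mice 36.7, 41.5 and 83.1. All 9 AL mice were above all LS mice and 3 above every Ctrl mouse. The log2FC was 0.62 ± 0.11 against Ctrl (edgeR FDR = 0.000872) and 0.68 ± 0.14 against LS (FDR = 0.00203). Leaving out AL9 took the first to 0.57 and leaving out LS1 took the second to 0.55, both just below the fold threshold with FDR of 0.0022 and 0.011.

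In second-run mice Csf1 was 79 ± 5.9 CPM (SD, n = 2) in AL and 41.4 ± 5.06 (n = 3) in Ctrl, and in first-run mice 41.4 ± 3.84 (n = 7) and 29.8 ± 3.2 (n = 4). The ranges did not overlap within either run. Csf1 is made by fibroblasts and endothelium among other cells. The fibroblast list summed to 314 CPM in AL8 and 1978 in AL9, and the blood endothelium list to 924 and 552 CPM in the same mice, where it was 552 to 1537 over all AL mice. The part of these cells in the Csf1 values was not tested.

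Csf2rb and Csf2rb2 encode the common beta chains through which GM-CSF, interleukin-3 and interleukin-5 signal. Csf2rb (chr15:78325752-78353847, plus strand) had 1.38, 1.97 and 3.17 CPM as lowest, median and highest in Ctrl, 1.84, 1.77, 1.71 and 1.68 in LS, and 1.38, 3.48 and 15.7 in AL. Csf2rb2 (chr15:78282507-78305721, minus strand) had 0.591, 1.5 and 1.73 CPM in Ctrl, 0.921, 1.16, 1.06 and 0.925 in LS, and 1.23, 2.17 and 13.8 in AL. For Csf2rb2 all 9 AL mice were above all LS mice, for Csf2rb 8 of 9, and AL8 and AL9 were the highest of the study for both.

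The log2FC of Csf2rb was 0.98 ± 0.33 against Ctrl (edgeR FDR = 0.0339) and 1.16 ± 0.42 against LS (FDR = 0.049). That of Csf2rb2 was 1.15 ± 0.40 against Ctrl (FDR = 0.0407) and 1.26 ± 0.51 against LS (FDR = 0.0778, not called). Leaving out 1 mouse lost the call against Ctrl in 6 of 20 fits for Csf2rb (AL4, AL9, Ctrl3, Ctrl5, Ctrl6 or Ctrl7) and in 7 for Csf2rb2 (AL1, AL3, AL4, AL9, Ctrl5, Ctrl6 or Ctrl7), with 0.67 and 0.77 without AL9. The call of Csf2rb against LS was kept in 3 of the 20, those without AL2, AL9 or Ctrl5. The 2 genes have 95.2% identical coding bases, and 29% of the 31-base words of Csf2rb2 occur in Csf2rb. Their sum rose against Ctrl by 1.06 (FDR = 0.0311), and against LS it was 1.21 (FDR = 0.0539, not called).

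**Figure D3:**
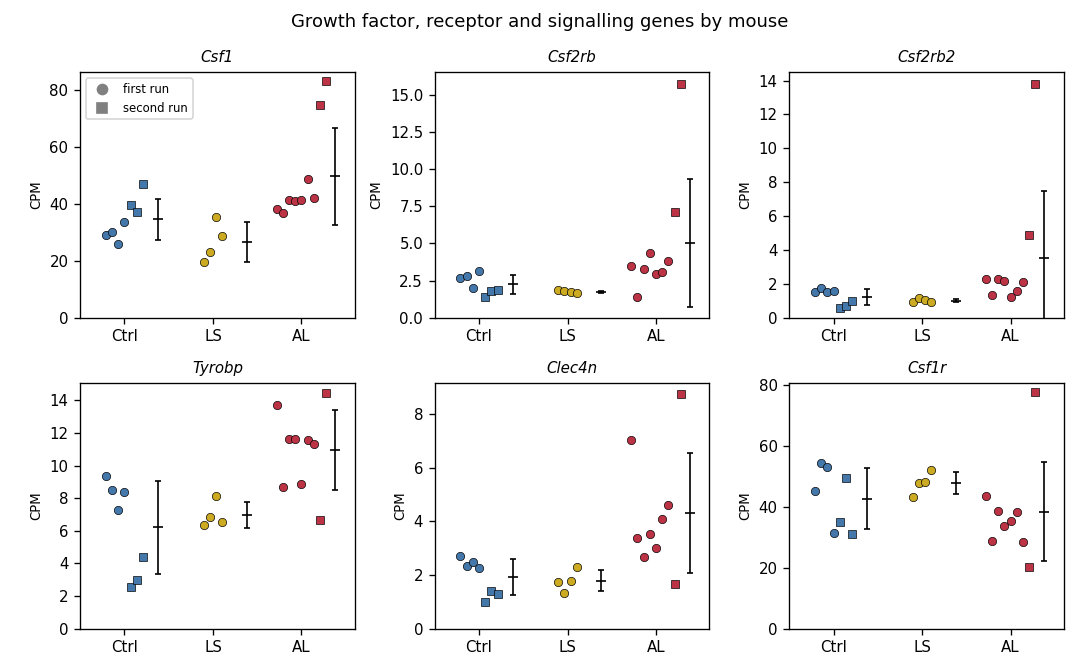
Each point is the CPM of 1 mouse for Csf1, Csf2rb, Csf2rb2, Tyrobp, Clec4n and Csf1r, with circles for the first run, squares for the second, and bars for the mean ± SD of 7 Ctrl, 4 LS and 9 AL mice. The 2 AL squares are the top 2 points for Csf1, Csf2rb and Csf2rb2, and lie at the highest and lowest AL value for Csf1r.

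The difference between AL and Ctrl was itself compared between the runs. Of the 44 genes, 2 passed this test by edgeR, where 1.41% of all tested genes passed it in either direction, and both were the beta chains. The log2FC in the second run exceeded that in the first by 2.51 ± 0.44 for Csf2rb (FDR = 0.0123) and by 3.36 ± 0.45 for Csf2rb2 (FDR = 0.0011). Within the first run the estimates were 0.26 (FDR = 0.415) and 0.24 (FDR = 0.358) against Ctrl but 0.87 (FDR = 0.0114) and 0.88 (FDR = 0.00389) against LS, and within the second run they were 2.83 and 3.64 against Ctrl (FDR = 0.0971 for each). Without AL9 the difference for Csf2rb was 1.83 (FDR = 0.096) and no longer passed, while that for Csf2rb2 was kept in all 20 fits that left out 1 mouse. The count of genes that passed changed when single mice were left out, so the between-run count depends on them. Without AL8 or AL9 the second run holds 1 AL mouse, and no count is given for those fits.

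In mice of the first run alone, 6 of the macrophage genes were called against Ctrl, with 3 higher (Plac8, Clec4n and Ms4a7) and 3 lower (Timd4, Ly6c2 and Arg1), beside a background of 3.81% and 4% of 14288 genes. Of these 6, 4 were among the 11 called in all mice. Against LS in the first run 13 were called, with 12 higher and 1, Timd4, lower, beside 7.94% and 3.53%, and they held all 10 that were called in all mice. Of 42 genes that could be fitted in both runs, 26 had the same sign against Ctrl, with medians of 0.12 over the first run and 0.71 over the second.

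**Figure D4:**
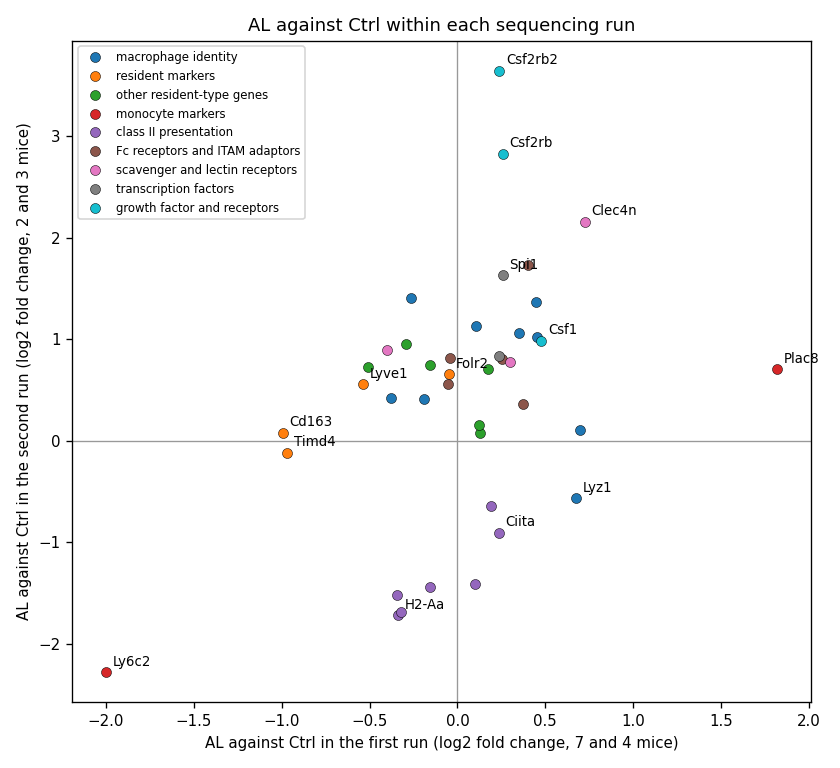
Each point is the log2FC of 1 macrophage gene between AL and Ctrl in the first run (horizontal, 7 and 4 mice) and in the second run (vertical, 2 and 3 mice), coloured by role, for 41 genes, leaving out Chil3, which had 0 counts in second-run Ctrl, and the genes filtered out in either run. Csf2rb and Csf2rb2 lie highest, the class II genes lie below 0 in the second run, and the resident markers Cd163, Folr2 and Lyve1 change sign between the runs.

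Other genes of resident macrophages gave a mixed count. Of 14 tested, 1 was higher in AL than in Ctrl, the fractalkine receptor Cx3cr1 (1.28 ± 0.38, edgeR FDR = 0.0206), and against LS 1 was higher, the transporter Slco2b1 (0.72, FDR = 0.0239), and 1 lower, the chemokine Ccl24 (−1.18, FDR = 0.0486). The background was 4.1% of all tested genes called higher against Ctrl and 5.86% higher and 3.03% lower against LS, and 1 of 14 is near these shares. Their median was 0.25 against Ctrl and 0.54 against LS. Of 13 tested genes of the CSF and dying cell clearance pathways, none was called by edgeR in either comparison, with 1 at an unadjusted p under 0.05 against Ctrl and 4 against LS, all higher, beside 17.8% and 17.2% of all tested genes that were higher at such a p. DESeq2 called 0 and 1 of them, the latter the interleukin-3 receptor chain Il3ra, and Mfge8, another bridging protein for dying cells, was 0.56 against Ctrl (FDR = 0.000225), short of the fold needed.

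Lists for other cells that the apex could hold moved beside these genes. The macrophage list of 10 genes summed to 129 to 242 CPM in Ctrl, 186 to 209 in LS and 105 to 427 in AL, with the lowest and highest values in AL8 and AL9. By edgeR 0 of its genes were called in either comparison, beside 4.1% and 5.86% of all tested genes called higher. At an unadjusted edgeR p under 0.05, 4 and 3 were higher, beside 17.8% and 17.2% of all tested genes. DESeq2 called 1 and 2. The neutrophil list of 7 genes summed to 1.77 to 21.9 CPM in Ctrl, 2.95 to 7.09 in LS and 2.65 to 34.5 in AL, with the highest values in AL8 and AL9, and its defining gene Ly6g was at or below 0.172 CPM in every mouse. Csf2rb, Csf2rb2, Chil3, Plac8 and Tyrobp are also genes of neutrophils. In the test between runs 4 of the 6 neutrophil genes passed, beside 1.41% of all tested genes. Mmp8 and Retnlg, which passed, were at 0 CPM in Ctrl5 to Ctrl7, so their estimates have no firm size. The platelet list of 5 genes summed to 5.51 to 16.2 CPM in Ctrl, 12.1 to 12.5 in LS and 13.5 to 26.4 in AL, so that all 9 AL mice lay above all LS mice. Of its 4 tested genes 1, Ppbp (1.58, FDR = 0.0141), was called higher against Ctrl, and 3, Ppbp (1.72), Gp9 (2.58) and Itga2b (1.55), against LS, while Pf4 was at 0.039 and −0.0093. Over all tested genes 4.1% and 5.86% were called higher. The T cell list summed to 1.77 to 4.53 CPM in Ctrl, 1.66 to 3.43 in LS and 2.02 to 5.56 in AL. The cardiomyocyte list, which checks the labelled tissue, held 35081 to 66759 CPM in every mouse. The part of these cells in the macrophage gene results was not tested.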

How the data were processed

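RNA from the heart apex of 20 mice (9 AL, 4 LS, 7 Ctrl) was sequenced in 2 runs, and groups and runs were taken from the sample labels. The authors aligned reads with STAR to GRCm38 and deposited expected counts per gene from Salmon, of which 14.2% were not whole. These estimated counts were rounded to whole numbers, so reads shared by near-identical genes had been split by the authors' software. All 25308 genes entered 1 fit with edgeR 4.0.16 in R 4.3.3 (quasi-likelihood test, TMM factors, filterByExpr at a minimum count of 10). The model held terms for the group and for the run, with all 20 mice sharing 1 estimate of the spread. The FDR was adjusted by Benjamini-Hochberg over the 14477 tested genes, and genes were called below an FDR of 0.05 when the log2FC was 0.58 or more in size. CPM used TMM factors, and a count of 0 was bounded by 3 counts, which covers counting error only. Depth was far lower in the second run, so low genes are less certain there. The fit was tested on simulated data. Correlations between mice over genes were 0.893 to 0.98, and no pair of libraries held identical values.

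The members and gene lists were chosen with earlier results of these data known, and the genes given by mouse were the resident, monocyte, class II and general markers and every member called. Alternatives were other filters and factors, leaving out the run term or single mice, each run alone, the compared groups alone, a replicate block, covariates for hepatocyte genes and Xist, ComBat-seq (sva 3.50.0), DESeq2 1.42.0 and sums over near-identical pairs. Positions are from GENCODE M21 on GRCm38 and promoters from RefSeq on GRCm38.p6. Values of 1 gene of the fixed lists are not reported here.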

Additional observations from a re-analysis of the deposited data

Results flagged for a closer look

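In 13 of the 132 sets made by 1 macrophage gene in 1 group, a single mouse lay far from the others of its group by Dixon's test. Chance gives about 1 in 20 where all mice of a group share a run. The values were not adjusted for the run, and AL and Ctrl held mice of both runs, so that rate does not apply to them. Of the 13 sets 10 were in AL, 3 in Ctrl and 0 in LS. AL8 was the low mouse in 8. It had 5.81 CPM of Adgre1 (next lowest AL mouse 12.8), 5.22 of Lyve1 (19), 13 of Mrc1 (30.9) and 3.67 of Cbr2 (8.1). It also had 4.74 CPM of Maf (next 11.6), 0.593 of Fcgr1 (1.76), 0.356 of Lyz1 (1.72) and 89.8 of Lyz2 (179). For Adgre1, Maf, Fcgr1 and Lyz2 its value lay inside the range of the second-run Ctrl mice. For Lyve1, Mrc1, Cbr2 and Lyz1 it lay below that range. AL9 was the high mouse for Gas6, with 262 CPM (next highest 128), and for Spi1, with 9.47 (3.15).

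In Ctrl, Ctrl7 was low for Cd68, with 2.69 CPM (next 5.32), and for Spi1, with 1.08 (2.04). Ctrl5 was high for H2-DMb1, with 5.12 CPM (next 3.88). All 13 of these sets turned on a mouse of the second run.

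The difference between AL and Ctrl was larger in the second run than in the first for Csf2rb, by 2.51 on the log2 scale, and for Csf2rb2, by 3.36, in the test of the difference between runs (edgeR FDR = 0.0123 and 0.0011).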

How the results depend on the processing

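The 11 macrophage genes called between AL and Ctrl became 7 with at least 10 counts in every mouse, 6 in the first run alone (3 higher, 3 lower), 3 in the second run alone (0 higher, 3 lower), 6 with the compared groups alone, 4 with a replicate block, 7 with ComBat-seq (3 higher, 4 lower) and 14 with DESeq2. Leaving out single mice gave 5 to 13, with 7 without Ctrl4, 5 without Ctrl5 and 7 without Ctrl7. Without AL9 it was 8 (3 higher, 5 lower). The 10 called between AL and LS became 5 with at least 10 counts in every mouse, 4 with ComBat-seq and 15 with DESeq2. Leaving out single mice gave 3 to 11, with 6 without AL4 and 3, 4, 5 and 4 without LS1, LS2, LS3 and LS4. The 2 genes that differed between runs became 1 with at least 10 counts in every mouse, 1 with the hepatocyte covariate and 7 with DESeq2, and 1 to 21 without single mice (4 without AL7, 21 without AL8, 1 without AL9). The count between LS and Ctrl was 0 in edgeR under every alternative and in DESeq2. The causes of these shifts were not tested, beyond the fewer genes or mice that some alternatives use.

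Replicate numbers did not pair mice: same-numbered mice deviated together with correlations of −0.15 to 0.23. With the replicate block, 10 genes were called between AL and LS and 0 between LS and Ctrl. The block could not be fitted with the test between runs.

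Besides Arg1, the estimates that changed sign were of genes not called in that comparison. Against Ctrl, the second run alone gave 0.42 for Csf1r, 0.55 for Lyve1 and 0.076 for Cd163, and the first run alone −0.049 for Folr2 and 0.24 for Ciita, which was 0.25 with the block and 0.021 with Xist as covariate. Without single mice Lyve1 ran from −0.66 to 0.022, Folr2 from −0.057 to 0.19 and Ciita from −0.24 to 0.084. Against LS, Lyve1 was 0.044 with the hepatocyte covariate, H2-Ab1 0.052 with the block, and Folr2 −0.14 without the run term, −0.0086 in the first run alone, −0.0188 with the compared groups alone and −0.0384 with ComBat-seq. Cd74 against LS was 0.11 in the first run alone, 0.10 with the compared groups alone, 0.22 with the block and 0.043 with Xist. Without single mice Lyve1 ran from −0.23 to 0.030, Folr2 from −0.037 to 0.17 and Cd74 from −0.21 to 0.13 against LS. The shallow second run limits genes below 1 CPM most.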
